A study of Homo sapiens with 2 samples.

Results

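The genes examined here were 42 genes of DNA replication and of entry into S phase, in HCT116 cells with and without overexpression of HOXA5 short RNA. The list holds genes that license origins, form and load the replicative helicase, polymerize DNA, clamp the polymerases, protect single strands, join Okazaki fragments, supply nucleotides or start S phase. Members were taken by gene name through the transcript accession of each probe, and probes had to be well above background on both arrays (detected). No difference between the arrays entered the rule. At least 1 probe of each of the 42 listed genes met it, as did 11994 named genes in all.

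HCT116 is a cell line from a human colorectal carcinoma. The control cells carried the pEB vector without an insert (mock, genotype control), and the other cells carried the same vector with HOXA5 short RNA, which is a noncoding form of HOXA5 without its first exon. Both were kept in blasticidin for 2 weeks, and total RNA was hybridized in 1 color to 1 Agilent SurePrint G3 human array per group. Whether the transfected cells were a pool or a single clone is not given in the sources used here. Because each group had 1 array, no difference was tested and no p-value is given. Each value below describes this pair of arrays.

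Replication starts when the origin recognition complex, CDC6 and CDT1 load the MCM2-7 ring onto DNA in G1. CDC45 and the GINS complex then join the ring to form the active helicase, and the polymerases follow with the sliding clamp PCNA. Transcription factors of the E2F family, released when cyclin-dependent kinases inactivate the retinoblastoma protein, switch on many of these genes before S phase. In proliferating epithelial and cancer cells the mRNAs of this program are abundant, and they are often read as a measure of how many cells are cycling. In bulk RNA such as this, fewer cells in S phase and less RNA per cell cannot be told apart.

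The promoters show what many of these genes share beyond the rule that chose them. Promoter sequence (250 bases before to 50 after the gene start, RefSeq, GRCh38.p14) was at hand for 35 of the 42 genes. The E2F motif was searched as TTTCCCGC, TTTCGCGC, TTTGCCGC and TTTGGCGC on both strands, and overlapping matches were counted. It was present in 18 of the 35 promoters (51.4%). Of the 9473 promoters of genes detected on these arrays, 522 held it (5.51%), and of all 27305 promoters in the table, 908 did (3.33%). Of 28 promoters of mitosis genes, 3 held it (10.7%). The CCAAT box, searched as CCAAT on both strands, was in 21 of the 35 promoters (60.0%), in 22 of the 28 mitosis promoters (78.6%) and in 37.2% of the promoters of detected genes. A match is a description of the letters and does not show binding.

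The stretches below are the E2F matches of genes that the later results turn on, each with 10 bases on either side, 5′ to 3′ on the strand of the gene, with the match in capitals. CDC6 was the lowest of all members on the HOXA5 short array, POLE2 the highest member with a match, E2F1 encodes the factor itself, PCNA had probes that disagreed, and MCM2 and MCM6 stand for the helicase.
CDC6, chr17:40287876-40287903, plus strand: gccattcggaTTTGGCGCgagcgcggct
POLE2, chr14:49688202-49688229, minus strand: tgcggcggtgGCGCCAAAtcgcaaatat
E2F1, chr20:33686388-33686415, minus strand: gcaaaaaggaTTTGGCGCgtaaaagtgg
PCNA, chr20:5126664-5126691, minus strand: agcgtcagggGCGGGAAAaggcgtgcgt
MCM2, chr3:127598403-127598430, plus strand: gtgaaccactTTTCGCGCgaaacctggt
MCM6, chr2:135876516-135876543, minus strand: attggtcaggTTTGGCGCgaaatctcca

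Relative to the gene start, the first base of these matches lay at 7 for CDC6, -5 for POLE2, -20 for E2F1, -59 for PCNA, 2 for MCM2 and -90 for MCM6, where 0 is the start itself and a negative number lies before it. In MCM2 and MCM6 the match overlapped a second one on the opposite strand. MCM6 had 4 matches in all, and E2F1, MCM2, MCM3 and MCM7 had 2 each. The 17 promoters that held none of the 4 spellings in this window included those of CDC45, FEN1, MCM10, ORC1, ORC6, PRIM1 and RRM2.

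HOXA5 itself checked the labels. Its only probe (NM_019102) gave a processed signal, the background-corrected brightness of the spot on a linear scale, of 39.4 (scanner error 4.32) in mock cells and 346 (error 34.6) with HOXA5 short RNA. After scaling, this was a log2 difference of 2.83, a 7.11-fold higher signal in the cells labeled as overexpressing. Where this probe lies in the transcript is not known here, so it may read HOXA5 short RNA, HOXA5 mRNA or both. The cell type was checked against epithelial and other markers. Of 12 colon epithelial markers, 8 were detected on both arrays, among them EPCAM, CDH1, KRT8, KRT18 and CDX2, while KRT20, VIL1, LGALS4 and CEACAM5 were well above background on neither. Of 5 leukocyte markers on the array, 0 were detected on both (CD14 on the HOXA5 short array alone), and of 8 fibroblast and endothelial markers COL1A1 was.

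The HOXA5 short array was brighter as a whole. Its 75th percentile of processed signal was 44.0 against 35.6 on the mock array, a ratio of 1.23, and every log2 difference here is HOXA5 short minus mock after each array was scaled to that percentile. Signals are printed as scanned, so a signal 1.23 times higher on the HOXA5 short array is a log2 difference of 0. Across 593 probes printed in several spots, the log2 difference of a single spot had an SD of 0.26. By brightness, the SD was 0.30 below a signal of 50, 0.26 up to 200, 0.24 up to 1000 and 0.23 for brighter probes. This spread covers measurement within the arrays and no difference between cultures. Scaled in this way, the spike-in RNAs of the labeling kit gave lower values with HOXA5 short RNA (median log2 difference -0.43 over 8 detected spike-ins, range -0.66 to -0.04), so scaling to them instead would move every gene up by 0.43.

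No DNA replication or S phase gene differed 2-fold between the arrays (0 of 42). Of all 11994 genes, 108 did (0.900%), of which 77 were higher (0.642%) and 31 lower (0.258%) with HOXA5 short RNA. With scaling to the median the split was 108 higher and 20 lower, and with scaling to the spike-ins 349 higher and 9 lower, while without a filter on low signals the balance turned, with 446 higher and 564 lower. The count of members was 0 in all of these. At a lower threshold of 1.5-fold and with the 75th percentile scaling, 0 of the 42 members and 4.38% of all genes were past it. The members' log2 differences ran from -0.57 for CDC6 to 0.48 for RPA2, with a median of -0.03 and an SD of 0.19 over genes. The median of all genes was -0.02 and their SD 0.29. Above the median of all genes lay 18 members and below it 24. With background correction by normexp, 29 members lay above it, against a median of 0.10 for the members and 0.03 for all genes.

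**Figure D1:**
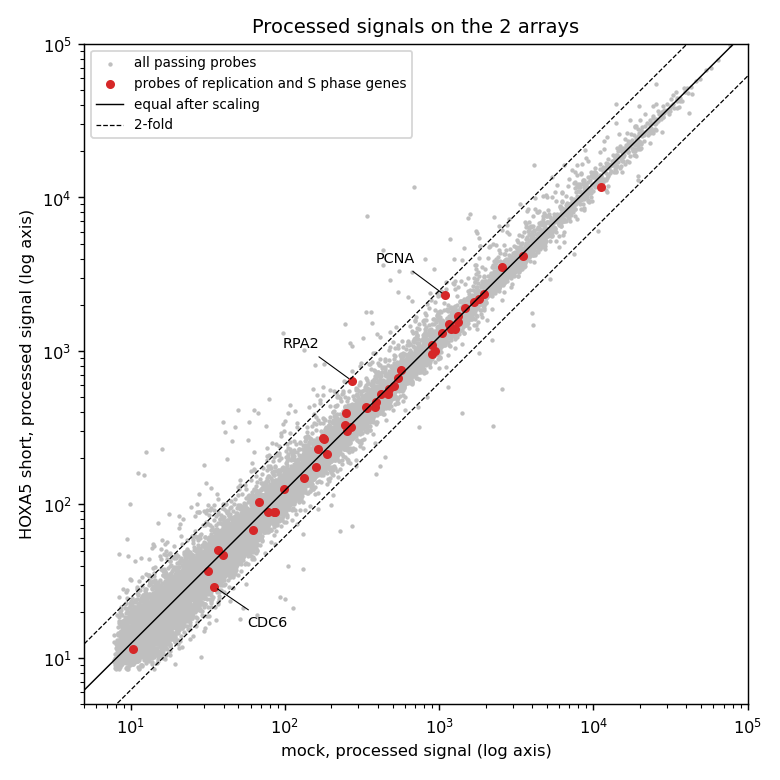
Processed signal in mock cells (x axis, log scale) against HOXA5 short cells (y axis, log scale) for all 17938 passing probes (gray) and the 50 passing probes of the DNA replication and S phase genes (red). The solid line marks equal signals after scaling and the dashed lines 2-fold. All 50 red points lie between the dashed lines, and the PCNA and RPA2 probes nearest the upper line and the CDC6 probe nearest the lower line are named.

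Most members also lay inside the spread of single spots. The 42 genes were represented by 53 probes, of which 50 were well above background on both arrays. Among these 50, mock signals ran from 10.3 for the dimmer CCNE2 probe to 11154 for 1 MCM7 probe, with a median of 387. The median of all passing probes was 90.4, and dimmer probes have a larger spread. Past the SD of single spots of their brightness lay 9 of the 50 member probes (18%), 6 higher and 3 lower, against 27.9% of all passing probes. The same SD was applied to the 4 member probes printed in 10 spots, whose values are means over spots and so vary less. None of these 4 was past it. The share of all passing probes past it fell from 37.4% at signals of 5 to 50 to 20.4% above 1000, while 1 of 5 and 2 of 15 member probes were past it in these ranges. Between 50 and 200 it was 2 of 10 member probes and 25.3% of all probes, and from 200 to 1000 it was 4 of 20 and 21.2%. Taken as genes, each against the mean SD of its own probes, 6 members were past the spread. RPA2, FEN1, POLE2 and GINS4 were higher, and CDC6 and MCM10 lower. Against the SD over all brightnesses (0.26), 35 of the 42 members (83.3%) and 9066 of all 11994 genes (75.6%) lay within it.

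**Figure D2:**
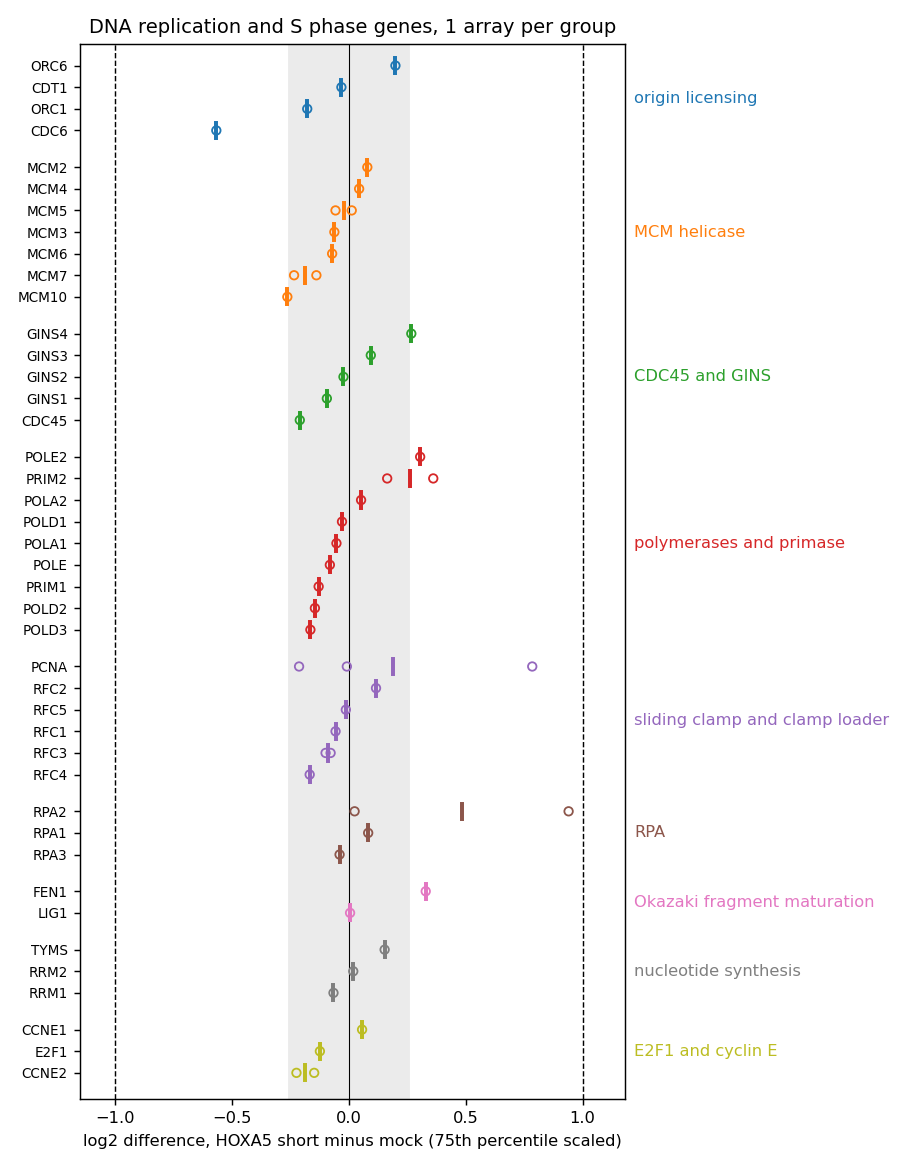
Log2 difference, HOXA5 short minus mock, for each of the 42 genes, grouped by role. Open circles are passing probes, bars are the mean over the probes of a gene, the gray band is within 1 SD of single spots (0.26) and dashed lines mark 2-fold. Bars on both sides of 0 appear in 8 of the 9 roles, and no bar reaches a dashed line.

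The licensing genes decide where replication may start. CDC6 (NM_001254, chromosome 17), which brings the MCM ring to the origin complex, gave 34.9 (error 3.89) in mock cells and 29.1 (error 3.45) with HOXA5 short RNA. Its log2 difference of -0.57, a 1.48-fold lower signal, was the lowest of the 42 and exceeded the single-spot SD of 0.30 at this brightness. It rested on 1 dim spot, whose 22 measured neighbors on the array had a mean of -0.21 and included 0 that differed 2-fold. With normexp, whose offset shrinks low signals, CDC6 gave -0.28.

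The other licensing genes lay nearer to 0. ORC1, the largest subunit of the origin complex, gave 62.4 and 68.0, a log2 difference of -0.18. CDT1, the partner of CDC6 in loading the ring, gave 1804 and 2178, a difference of -0.03. ORC6, the smallest subunit of the origin complex, was printed in 10 spots. Their signals ran from 149 to 173 (median 165) in mock cells and from 218 to 261 (median 229) with HOXA5 short RNA. The signals as scanned did not overlap, but the HOXA5 short array was 1.23 times brighter as a whole. The scaled difference was 0.20 ± 0.11 (SD over 10 spots), above 0 in 10 of 10 spots.

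MCM2 to MCM6 lay close to 0 as measured. These genes form the helicase ring together with MCM7. Their log2 differences were 0.08 for MCM2, -0.06 for MCM3, 0.04 for MCM4, -0.02 for MCM5 and -0.07 for MCM6. Single spots varied by more than any of these 5 values. The neighbors of the MCM3 spot had a mean of -0.29, and with the local mean subtracted MCM3 gave 0.22. In signal, MCM2 gave 1154 and 1504, MCM3 3490 and 4126, and MCM6 1191 and 1399. Both probes of MCM5 were close to 0, at -0.06 and 0.01.

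MCM7 and MCM10 were the lowest of this group. The probes of MCM7 (chromosome 7) gave 11154 and 11700 for NM_182776 and 133 and 150 for NM_005916, log2 differences of -0.24 and -0.14. The first of these was just past its single-spot SD of 0.23, and the gene value was -0.19. MCM10, which helps to activate the loaded helicase and is no part of the ring, gave 86.6 (error 8.79) and 89.0 (error 9.06). Its difference of -0.26 was just past the single-spot SD of its brightness (0.26). Of the 7 MCM genes, 2 lay above and 5 below 0, with a median of -0.06. With scaling to the median 5 of the 7 were above 0 and with scaling to the spike-ins all 7, since both scalings move all genes alike.

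CDC45 and the GINS subunits complete the active helicase. CDC45 (NM_003504, chromosome 22) gave 898 and 958, a difference of -0.21. The 20 measured neighbors of its spot had a mean of -0.30, and when the local mean was subtracted CDC45 gave 0.09. GINS4 (NM_032336) gave 179 and 266, a difference of 0.27 with a single-spot SD of 0.24 and 0 of 19 neighbors that differed 2-fold. GINS1 gave 513 and 593, a difference of -0.09.

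The other GINS subunits had values that call for their spots. GINS2 was printed in 10 spots, which ran from 722 to 995 (median 928) in mock cells and from 1009 to 1134 (median 1093) with HOXA5 short RNA. The difference was -0.03 ± 0.15 (SD over 10 spots), below 0 in 8 of 10. The signals as scanned did not overlap. Since the HOXA5 short array was 1.23 times brighter as a whole, this says nothing of the gene. GINS3 gave 570 and 751, a difference of 0.09, and its spot lay in an uneven zone of the array, where 4 of its 19 neighbors differed 2-fold. Subtracting the local mean turned it to -0.23. The part of the zone in the value was not tested.

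**Figure D3:**
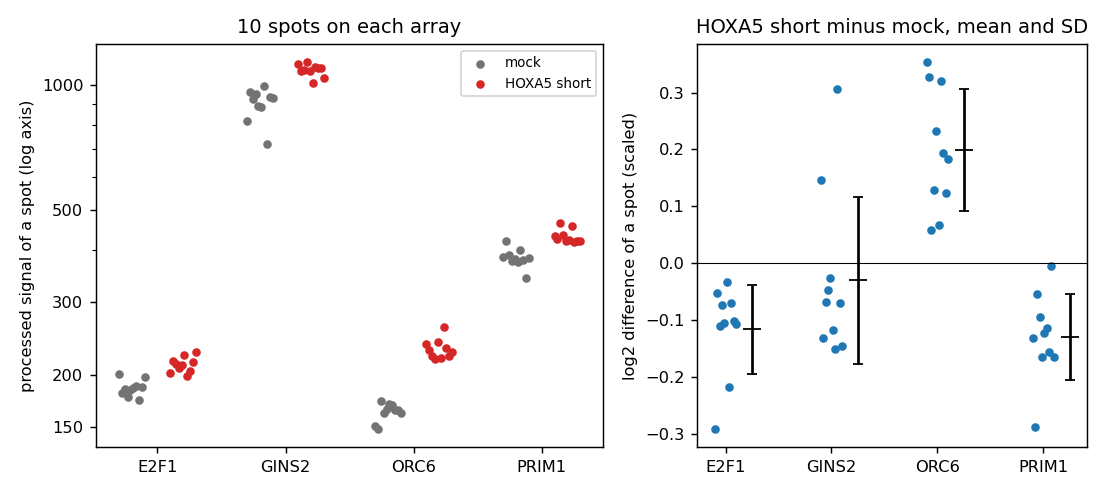
The 4 members printed in 10 spots on each array. Left, the processed signal of each spot (y axis, log scale) in mock (gray) and HOXA5 short cells (red); right, the scaled log2 difference of each spot with the mean and SD over 10 spots. All spots of ORC6 lie above 0 and all spots of E2F1 and PRIM1 below it, by means between 0.12 and 0.20 in size. With scaling to the median, E2F1 and PRIM1 both give -0.03, and with scaling to the spike-ins they lie above 0.

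DNA polymerases and primase formed the largest group. Primase makes the RNA primer on each fragment. PRIM1, its catalytic subunit, was printed in 10 spots that ran from 343 to 422 (median 382) in mock cells and from 419 to 464 (median 425) with HOXA5 short RNA. The difference was -0.13 ± 0.08 (SD over 10 spots), below 0 in 10 of 10. PRIM1 gave -0.03 with scaling to the median, -0.005 with normexp and 0.30 with scaling to the spike-ins. The signals of the arrays overlapped as scanned. The other subunit, PRIM2, went the other way. Its probes gave 248 and 393 (difference 0.36) and 36.6 and 50.7 (difference 0.16), and a further probe was not well above background on either array.

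The polymerase subunits lay on both sides of 0. Polymerase alpha extends the primer, and its subunits POLA1 and POLA2 gave differences of -0.05 and 0.05. Polymerase delta copies the lagging strand. Its subunits POLD1, POLD2 and POLD3 gave -0.03, -0.15 and -0.17, all within the single-spot spread. In signal, POLD1 gave 470 and 569, POLD2 466 and 520, and POLD3 159 and 175.

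Polymerase epsilon copies the leading strand. Its catalytic subunit POLE gave 31.8 and 37.1, a difference of -0.08, from the 1 of its 2 probes that was well above background. POLE2, its second subunit, gave 67.9 (error 6.98) and 104 (error 10.5), a difference of 0.30 against a single-spot SD of 0.26. The 20 neighbors of this spot had a mean of 0.28, and with the local mean subtracted POLE2 gave 0.02. Whether the position of the spot accounts for the value was not tested.

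PCNA, the sliding clamp that holds polymerases on DNA, had 3 probes for the same transcript (NM_002592, chromosome 20), and they disagreed. A_23_P28886 gave 1691 and 2075, a difference of -0.01. A_33_P3258612 gave 939 and 999.5, a difference of -0.21. The remaining one, A_19_P00806947, gave 1087 (error 109) and 2312 (error 231), a difference of 0.78 against a single-spot SD of 0.23. Of the 19 neighbors of this spot 1 differed 2-fold, and their mean was 0.05. The mean over the 3 probes was 0.19, and A_19_P00806947 was the only one of them above 0.

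The clamp loader, RFC, opens PCNA and sets it on the primer. Its large subunit RFC1 gave 270 and 320 (difference -0.06), RFC2 gave 245 and 328 (0.12), and RFC5 gave 1182 and 1446 (-0.01). RFC4 gave 1262 and 1387, a difference of -0.17. The probes of RFC3 were close to each other, at -0.10 and -0.08. No loader gene was past the single-spot spread.

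RPA coats single-stranded DNA at the fork. RPA2 (chromosome 1), the middle subunit, had the highest value of the 42 genes, 0.48, but from probes that disagreed. The probe for NM_002946 gave 271 (error 27.1) and 641 (error 64.2), a difference of 0.94, the probe nearest to 2-fold among the members. The probe for NM_001286076 gave 418 (error 41.8) and 524 (error 52.5), a difference of 0.02. For the first spot, 2 of 23 neighbors differed 2-fold and their mean was 0.29. The value of RPA2 was 0.02 when the probe with the higher mean log2 signal over both arrays stood for the gene.

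RPA1, the large subunit, gave 1467 and 1918, a difference of 0.08, from a spot in an uneven zone whose neighbors had a mean of 0.39. With the local mean subtracted it gave -0.31. RPA3, the small subunit, gave 1964 and 2358, a difference of -0.04. Neither RPA1 nor RPA3 was past the single-spot spread as measured.

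Among the genes that finish Okazaki fragments, FEN1, the nuclease that trims the flap, gave 176 (error 17.6) and 272 (error 27.3). The difference was 0.33, the second highest of the 42, from 1 spot with a neighbor mean of 0.11. LIG1, which seals the nick, gave 541 and 670, a difference of 0.00 to 2 decimals.

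The nucleotide supply of S phase was measured in 3 members. TYMS, which makes thymidylate, gave 2568 and 3524, a difference of 0.15. RRM1 and RRM2, the subunits of ribonucleotide reductase, gave 1318 and 1554 (difference -0.07) and 339 and 424 (0.02). None was past the single-spot spread.

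E2F1 and cyclin E stand at the entry to S phase. E2F1 (NM_005225, chromosome 20) was printed in 10 spots, from 174 to 201 (median 186) in mock cells and from 199 to 227 (median 212) with HOXA5 short RNA. The difference was -0.12 ± 0.08 (SD over 10 spots), below 0 in 10 of 10. The 10 spots are copies on the same 2 arrays. E2F1 gave -0.03 with scaling to the median, -0.002 with normexp and 0.31 with scaling to the spike-ins. The signals of the arrays overlapped as scanned. CCNE1, a cyclin that activates CDK2, gave 1319 and 1693, a difference of 0.06. CCNE2, its close relative, gave -0.22 for a probe at 84.7 and 89.4 and -0.15 for a dim probe at 10.3 in mock cells.

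Genes with and without an E2F match in the promoter had nearly the same median. The 18 members with a match had a median log2 difference of -0.04 and ran from -0.57 for CDC6 to 0.30 for POLE2. The 17 without a match had a median of -0.03 and ran from -0.26 for MCM10 to 0.33 for FEN1. CCNE2, GINS4, MCM4, MCM5, POLD3, RPA2 and RPA3 had no promoter sequence at hand and are in neither group. Among these are RPA2, the highest of all members at 0.48, and GINS4 at 0.27.

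Other genes of replication and of the G1/S step were read from 5 further lists. Of their 95 genes 89 were detected on both arrays, and 0 of the 89 differed 2-fold, with a median of 0.01. Among 31 other replication fork genes the median was 0.02. TICRR, which acts in origin firing, was highest at 0.32, and DNA2, a nuclease and helicase, lowest at -0.35.

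Among 12 other genes of nucleotide supply the median was 0.12, and 9 of them lay above the median of all genes. NME1, a nucleoside diphosphate kinase, was lowest at -0.15. The median of 9 chromatin assembly and maintenance genes was 0.05, between UHRF1 (-0.17) and CHAF1A (0.19). Both of these are means of probes that disagreed. UHRF1 gave -0.32 and -0.02, and CHAF1A gave 0.00 for a bright probe and 0.38 for a dim one at 39.9 in mock cells. That of 8 replication checkpoint genes was 0.06, between ATRIP (-0.38), the partner of ATR, and WEE1 (0.32), a kinase that holds back CDK1.

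Among 29 G1/S regulators the median was -0.02, as for all genes. The lowest was CDKN1A, the CDK inhibitor p21, at 415 in mock cells and a difference of -0.37 with a single-spot SD of 0.24. The highest was TFDP2, a partner of E2F proteins, at 0.31.

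Mitosis genes, the later program of the cycle, were set beside the members as another part of the cell cycle. All 35 were detected, 0 differed 2-fold, and their median was -0.01, against -0.03 for the replication genes. They ran from MKI67 (-0.65) to AURKB (0.26). MKI67, a marker of proliferating cells, had 3 probes at -1.62, -0.24 and -0.08, and the spot of the first lay in an uneven zone. The difference between the groups was not tested.

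**Figure D4:**
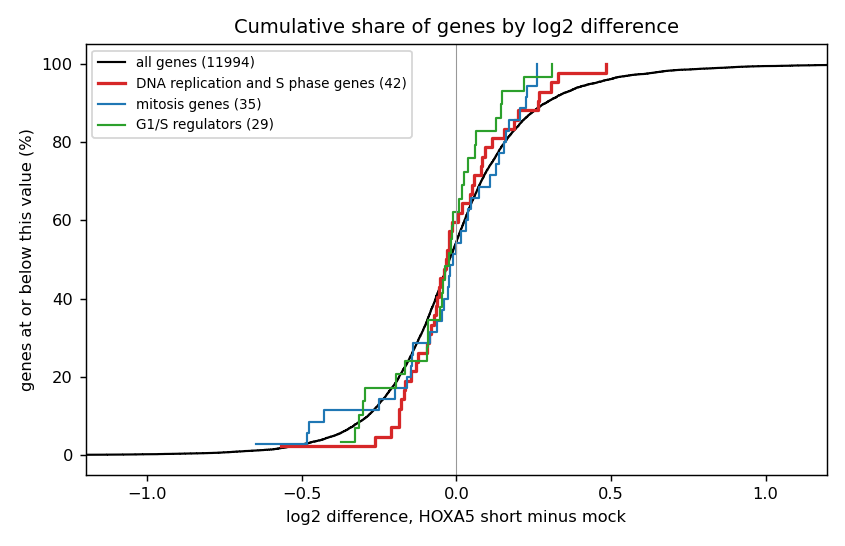
Cumulative share of genes (y axis, percent) at or below each log2 difference, HOXA5 short minus mock (x axis), for the 42 DNA replication and S phase genes (red), 35 mitosis genes (blue), 29 G1/S regulators (green) and all 11994 genes (black). The 4 curves cross near 0, with medians of -0.03, -0.01, -0.02 and -0.02, and the x axis leaves out genes beyond 1.2 in size, none of them in the 3 lists.

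The balance around 0 followed the scaling. A scaling that moves all genes alike cannot move the position relative to all genes, so only the other settings bear on that position. In 12 ways of processing the values, 0 members differed 2-fold. The members' median ran from -0.05 with scaling over detected probes to 0.40 with scaling to the spike-ins, where the median of all genes was 0.41. Relative to the median of all genes, the members' median ran from -0.02 to 0.08. It was -0.01 as reported, with 18 of the 42 members above the median of all genes. With normexp it was 0.07 with 29 members above, and without a filter 0.08 with 30 above.

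**Figure D5:**
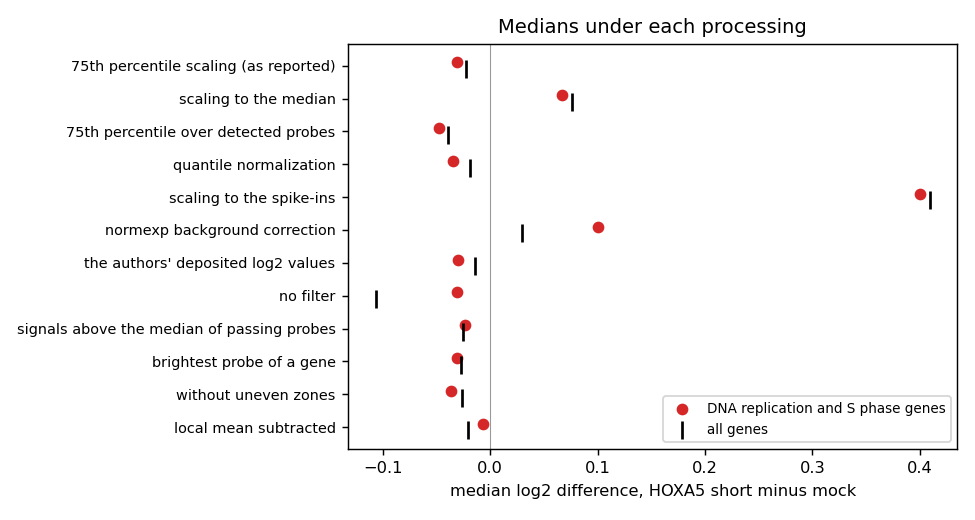
Median log2 difference, HOXA5 short minus mock (x axis), of the DNA replication and S phase genes (red points) and of all genes (black ticks) under each way of processing the values (y axis). The points stay within 0.08 of the ticks in every row, and they move to 0.40 and 0.41 with scaling to the spike-ins.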

How the data were processed

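One array per group was analyzed, with groups taken from the genotype label. Per the file headers, the authors' spots were quantified with Agilent Feature Extraction 11.5.1.1, and the deposited processed signal is a background-corrected intensity that is not scaled between arrays. The probe annotation was on hg19. The authors also deposited log2 values centered on the mean of both arrays for each probe, filtered on low and flagged signals. Their scaling is not given in the sources used here.

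Processed signals were converted to log2. Spots of a probe were averaged without flagged outliers, and each array's 75th percentile over 50599 non-control probes was subtracted. Probes well above background on both arrays (17938, of which 85.3% were named through RefSeq accessions of GRCh38.p14) were compared, and gene values are means over passing probes. The number of arrays limits the precision. No spot was saturated (0). The single-spot SD came from probes with at least 5 measured spots and kept copies flagged as unlike the others.

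A zone was called uneven where at least 10% of at least 10 measured neighbors within 4 rows and 4 columns differed 2-fold; 3.64% of measured single spots lay in one. Named were all 42 members, HOXA5, and the highest and lowest gene of each list, of which 1 is not reported here. Members, lists and alternatives were chosen with earlier results of these data known. The script was tested on simulated data with planted changes past 2-fold. These were larger than the difference of any member, so the test does not bear on differences of the members' size. Python 3.11.15, pandas 2.3.3, R 4.3.3 and limma 3.58.1 (normexp, offset 50, and quantile normalization) were used.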

Additional observations from a re-analysis of the deposited data

How the results depend on the processing

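The count of members past 2-fold was 0 under each alternative run. At the 1.5-fold threshold it was also 0 with the scaling as reported. With scaling to the spike-ins, RPA2 (0.91), FEN1 (0.76), POLE2 (0.74), GINS4 (0.70), PRIM2 (0.69), ORC6 (0.63) and PCNA (0.62) were past 1.5-fold. That scaling moves every gene up by 0.43 and puts the median of all genes at 0.41. The share of all genes past 1.5-fold was not counted under it, so this list cannot be read as a trait of the members. The members' median moved by at least the single-spot SD (0.26) with scaling to the spike-ins alone, to 0.40. The number of members above the median of all genes was 18 of 42 as reported and 29 with normexp. It was 30 without a filter, where the median of all genes itself was -0.11. In the other settings it lay between 17 and 22, but not always of 42. It was 19 of 35 for signals above the median, and 40 members were left without the uneven zones. The count of all genes past 2-fold was 108 as reported. It was 358 with scaling to the spike-ins, 45 with normexp, 324 in the authors' deposited log2 values, 1010 without a filter, 63 for signals above the median (35 members left), 63 without the uneven zones (40 members left), 67 with the local mean subtracted and 525 at the 1.5-fold threshold. The threshold, the filters, the left-out spots and the scaling to the spike-ins, which moves every gene alike, change the count by construction. For the rest the cause was not tested.

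Of single members, all 42 moved with scaling to the spike-ins, by 0.43 each. Besides, CDC6 moved with normexp (-0.28), RPA2 with the brightest probe (0.02), POLE (0.42) and PRIM2 (0.53) without a filter, where probes not above background enter, and CDC45 (0.09), GINS3 (-0.23), MCM3 (0.22), POLE2 (0.02) and RPA1 (-0.31) with the local mean subtracted. HOXA5 ran from 1.91 with normexp to 3.26 with the spike-ins. No paired analysis was possible because each group had 1 array and no result came from a test. Low signal limits CDC6 and POLE, whose values rest on 1 dim probe each, and the dimmer probes of CCNE2, PRIM2 and RFC3.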

Other observations

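Among the markers used to check the cell type, CLDN4, a tight junction protein of epithelia, gave 7457 in mock cells and 4302 with HOXA5 short RNA, a log2 difference of -1.10. Its spot lay in an uneven zone of the array, and the part of the zone in the value was not tested. The other 7 detected colon epithelial markers did not differ 2-fold.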
